A study of Rattus norvegicus with 12 samples.

Results

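The miR-193 and miR-365 microRNAs were followed in small RNA libraries of rat gastric mucosa. All rows of the deposited count tables named miR-193a, miR-193b or miR-365 were taken, which gave 5 of the 648 mature miRNAs. Of these, rno-miR-193a-5p, rno-miR-193a-3p and rno-miR-365-3p (named below without the rat prefix) could be tested. The family was chosen from its lower counts in XLHZ than in normal mucosa, so that difference is described here with no test. The 12 libraries fell into 3 groups of 4. The XLHZ group received MNNG (N-methyl-N'-nitro-N-nitrosoguanidine, a mutagen that alkylates DNA) for 24 weeks and the herbal Xianglianhuazhuo formula for 60 days. The labels do not say whether the formula followed the exposure or overlapped it. The model group received MNNG for 24 weeks and no formula, and is a model of chronic atrophic gastritis, in which gastric glands are lost. The normal group was untreated. In the exposed groups MNNG was drunk at 180 µg/ml, 2% sodium salicylate was given by gavage at 1 ml per 100 g, and 2 days of feeding alternated with 1 day of fasting. The labels give no strain, age or sex, nor do they say whether each library is a different rat. P-values therefore measure the spread between libraries, which may be technical.

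Mature miRNAs are cut from hairpin precursors whose arms, called 5p and 3p, can each be loaded into Argonaute, and one arm usually prevails. Bases 2 to 8, the seed, pair with target messages. In human and mouse, miR-365 is encoded by a copy beside miR-193a and another beside miR-193b. The miR-193b and miR-365 pair is known from mouse brown fat, where it is induced during differentiation. miR-193a-3p is best known as a tumour suppressor in human cancers, with KIT and MCL1 among its targets, and miR-365 targets cyclin D1. These are background facts and were not measured here.

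The mature sequences are printed because they fix which members could share targets or reads, with the seed in capitals, 5′ to 3′, from RefSeq.
miR-193a-5p: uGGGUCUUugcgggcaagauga
miR-193a-3p: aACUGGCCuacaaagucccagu
miR-193b-3p: aACUGGCCcacaaaguccc
miR-365-3p: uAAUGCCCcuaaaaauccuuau
miR-193a-3p and miR-193b-3p shared the seed ACUGGCC. Over the 19 bases that could be compared, counted from 1 at the 5′ end, they differed at 1 position (U9C), so the split of reads between these 2 members is uncertain. Among the measured miRNAs with a sequence, no other one carried that seed. No other measured miRNA with a sequence (587 of the 648) shared the seed of miR-193a-5p, miR-365-3p or miR-365-5p.

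The hairpins show how the arms lie and how close the precursors are, with the annotated mature arms in capitals. On the GRCr8 build, RefSeq places the miR-193a hairpin (Mir193) at chr10:65170317-65170402 and the miR-365 hairpin (Mir365b) at chr10:65184217-65184302, both on the plus strand.
Mir193: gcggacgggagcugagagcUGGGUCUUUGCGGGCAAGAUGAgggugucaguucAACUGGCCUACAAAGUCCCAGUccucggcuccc
Mir365b: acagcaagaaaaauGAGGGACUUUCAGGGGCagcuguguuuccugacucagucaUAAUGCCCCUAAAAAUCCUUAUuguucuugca
The gap between them was 13814 bases, and both lay within the span of the protein-coding gene Faul2. The miR-193b hairpin lay 63.3 Mb away on the same chromosome. No source used here gives the build behind the deposited counts. Counts of miR-365-3p do not tell which locus a read came from.

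Libraries held 9094962 to 11556058 counts of mature miRNAs. By mean level miR-143-3p ranked first of all miRNAs. Smooth muscle markers, the 4 arms from the miR-143 and miR-145 hairpins, summed to 97611 to 277213 CPM in XLHZ, 145151 to 403505 CPM in model and 133246 to 219379 CPM in normal libraries. CPM, the counts divided by the library total and set to a common scale, are adjusted here by TMM factors over all 12 libraries. Epithelial markers (miR-200a, miR-200b, miR-200c, miR-141, miR-429 and miR-375) summed to 84266 to 101892, 66993 to 96699 and 82985 to 100151 CPM in these groups, so epithelium and muscle were both represented. In bulk tissue, fewer cells of a type and less RNA per cell cannot be told apart.

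The arms used differed between the hairpins. From the miR-365 hairpin, the 3p arm gave 167438 counts over the 12 libraries and the 5p arm gave 24, with 0 to 5 in a library. From the miR-193a hairpin, both arms were present at similar levels, with 4300 counts of the 5p arm and 3009 of the 3p arm. miR-193b-3p had 12 counts in all, with 0 to 3 in a library and 0 in 5 of the 12. A floor of 3 counts corresponds to 0.260 to 0.330 CPM in these libraries, before TMM scaling and for counting error only. miR-193b-3p and miR-365-5p were therefore at or near that floor, and differences between groups were not detectable for them at this depth. The other 3 members passed the filter on low counts in every comparison. By mean level, miR-365-3p ranked 72 of 648 miRNAs, miR-193a-5p ranked 212 and miR-193a-3p ranked 238. On average over the libraries, miR-365-3p stood 39.1-fold above miR-193a-5p and 55.1-fold above miR-193a-3p.

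miR-365-3p measured 960.2, 1191, 929 and 1276 CPM in XLHZ libraries 1 to 4. It measured 1181, 2019.8, 923 and 1004 CPM in model libraries 1 to 4. In normal libraries 1 to 4 it measured 1562, 1865, 1283 and 1535 CPM. With TMM scaling all 4 XLHZ libraries lay below all 4 normal libraries, narrowly. Scaled to library totals alone the groups overlapped, with 1383 CPM in XLHZ library 4 against 1363 CPM in normal library 3. Model library 2 stood above the other model libraries under either scaling, and the other 3 model libraries lay below every normal library.

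miR-193a-5p measured 28.4, 26.2, 23.7 and 32.5 CPM in XLHZ libraries 1 to 4. It measured 30.9, 46.6, 24.7 and 19.4 CPM in model libraries 1 to 4 and 34.1, 45.0, 44.9 and 46.0 CPM in normal libraries 1 to 4. With TMM scaling XLHZ libraries again lay below all normal ones, in the contrast that picked the members. As for miR-365-3p, model library 2 stood above the other model libraries. On library totals XLHZ library 4, at 35.2 CPM, passed normal library 1, at 34.1 CPM. Within the normal group the order differed between the 2 members: library 1 was the lowest for miR-193a-5p and library 3 for miR-365-3p.

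miR-193a-3p, the other arm of that hairpin, measured 13.2, 25.8, 19.9 and 19.3 CPM in XLHZ libraries 1 to 4. It measured 25.4, 37.0, 21.9 and 28.1 CPM in model libraries 1 to 4, and 37.5, 22.3, 18.8 and 16.4 CPM in normal libraries 1 to 4. Here XLHZ and normal overlapped, and normal library 1, the lowest normal library for the 5p arm, was the highest for the 3p arm. Counting error was small beside this spread. For miR-193a-3p in normal libraries the coefficient of variation was 40.1%, against 6.22% from counting alone.

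**Figure D1:**
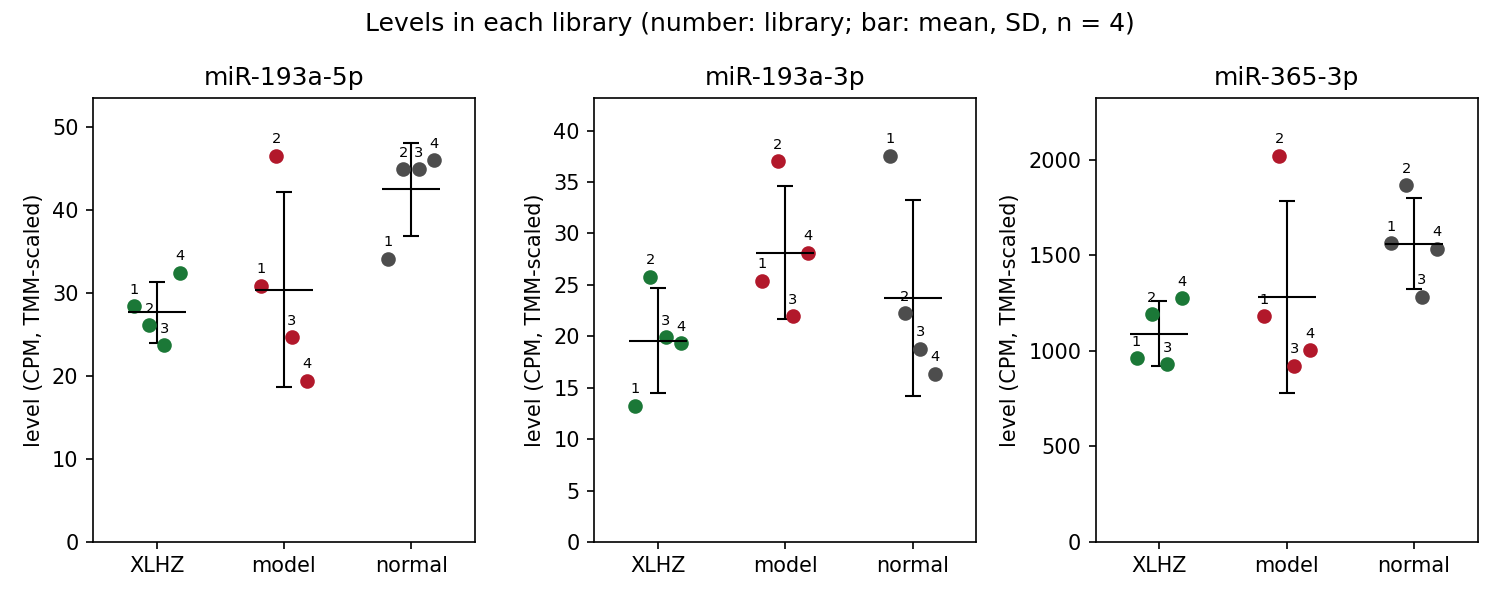
Levels of miR-193a-5p, miR-193a-3p and miR-365-3p (y axes, CPM scaled by TMM) in XLHZ, model and normal libraries (x axes), with points numbered by library and bars for the mean and SD (n = 4). XLHZ points lie below all normal points for miR-193a-5p and miR-365-3p under this scaling, though not on library totals, and overlap them for miR-193a-3p.

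The contrast of XLHZ with normal mucosa was the one used to pick the members, and its values are a description. miR-365-3p averaged 1089 ± 171 CPM in XLHZ and 1561 ± 238 CPM in normal mucosa (SD, n = 4 each), a log2 fold change of -0.55. miR-193a-5p averaged 27.7 ± 3.71 CPM in XLHZ and 42.5 ± 5.60 CPM in normal mucosa (SD, n = 4 each), a log2 fold change of -0.65. miR-193a-3p averaged 19.6 ± 5.12 CPM in XLHZ and 23.7 ± 9.52 CPM in normal mucosa (SD, n = 4 each), a log2 fold change of -0.30. The value for miR-193a-3p rested on normal library 1, without which it was 0.0092. With TMM scaling no XLHZ library reached a normal one for 2 of the 3 members, beside 2.24% of the 401 miRNAs tested that were lower with no overlap. The count was 2 with RLE factors too, and 0 on library totals, where 0.748% of miRNAs were lower with no overlap. Nothing is read from these counts, since this contrast chose the members.

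The next comparison asked whether the members differed between exposed mucosa without the formula and normal mucosa. It shares the normal libraries with the contrast that picked them. None of the 3 testable members passed in edgeR's quasi-likelihood test with Benjamini-Hochberg adjustment, in which 0.248% of 403 miRNAs passed. None had an unadjusted p under 0.05, beside 7.20% of all miRNAs, and none passed with DESeq2. The arms of miR-193a had fold changes of opposite sign. miR-193a-5p averaged 30.4 ± 11.7 CPM in model and 42.5 ± 5.60 CPM in normal libraries, so the log2 fold change was -0.49 ± 0.28 (SE), with an adjusted p in edgeR of 0.642. miR-193a-3p averaged 28.1 ± 6.46 CPM in model and 23.7 ± 9.52 CPM in normal libraries, so the log2 fold change was 0.24 ± 0.30 (SE), with an adjusted p in edgeR of 0.826. miR-365-3p averaged 1282 ± 504 CPM in model and 1561 ± 238 CPM in normal libraries, so the log2 fold change was -0.29 ± 0.25 (SE), with an adjusted p in edgeR of 0.783. For each of the 3 members the groups overlapped, while 1.99% of miRNAs were lower with no overlap. Leaving out model library 2 gave -0.76 for miR-193a-5p, 0.084 for miR-193a-3p and -0.59 for miR-365-3p. In the other direction, miR-193a-5p had -0.32 without model library 4, miR-193a-3p had 0.56 without normal library 1, and miR-365-3p had -0.098 without model library 3. No left-out library gave a call. In model library 2 the smooth muscle arms summed to 403505 CPM, the highest of the 12, and the epithelial markers to 66993 CPM, the lowest. In model library 3 the smooth muscle arms also summed to 356150 CPM, with epithelial markers at 90955 CPM. Yet miR-365-3p, at 923 CPM, and miR-193a-3p, at 21.9 CPM, were lowest there among model libraries. The part of these markers in the values of the members was not tested.

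The formula was then compared with exposure alone, a contrast that shares the XLHZ libraries with the one that picked the members. Again none of the 3 passed in edgeR, where 0.249% of 402 miRNAs did, or with DESeq2. None had an unadjusted p under 0.05, beside 4.23% of all miRNAs. The groups overlapped for each of the 3, while 0.249% of 401 miRNAs were lower with no overlap. miR-193a-3p averaged 19.6 ± 5.12 CPM in XLHZ and 28.1 ± 6.46 CPM in model libraries, so the log2 fold change was -0.54 ± 0.26 (SE), with an adjusted p in edgeR of 0.729. With TMM scaling 3 of the 4 XLHZ libraries lay below the lowest model library, and XLHZ library 2 lay among the model values. On library totals 1 of the 4 did, XLHZ library 1. miR-365-3p averaged 1089 ± 171 CPM in XLHZ and 1282 ± 504 CPM in model libraries, so the log2 fold change was -0.25 ± 0.26 (SE), with an adjusted p in edgeR of 0.819. miR-193a-5p averaged 27.7 ± 3.71 CPM in XLHZ and 30.4 ± 11.7 CPM in model libraries, so the log2 fold change was -0.15 ± 0.27 (SE), with an adjusted p in edgeR of 0.911. For miR-365-3p and miR-193a-5p the direction depended on model library 2: without it the log2 fold changes were 0.054 and 0.13. Scaled to library totals alone, miR-193a-5p had 0.058, beside a median of 0.17 over all miRNAs that this scaling moved from 0.0057.

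**Figure D2:**
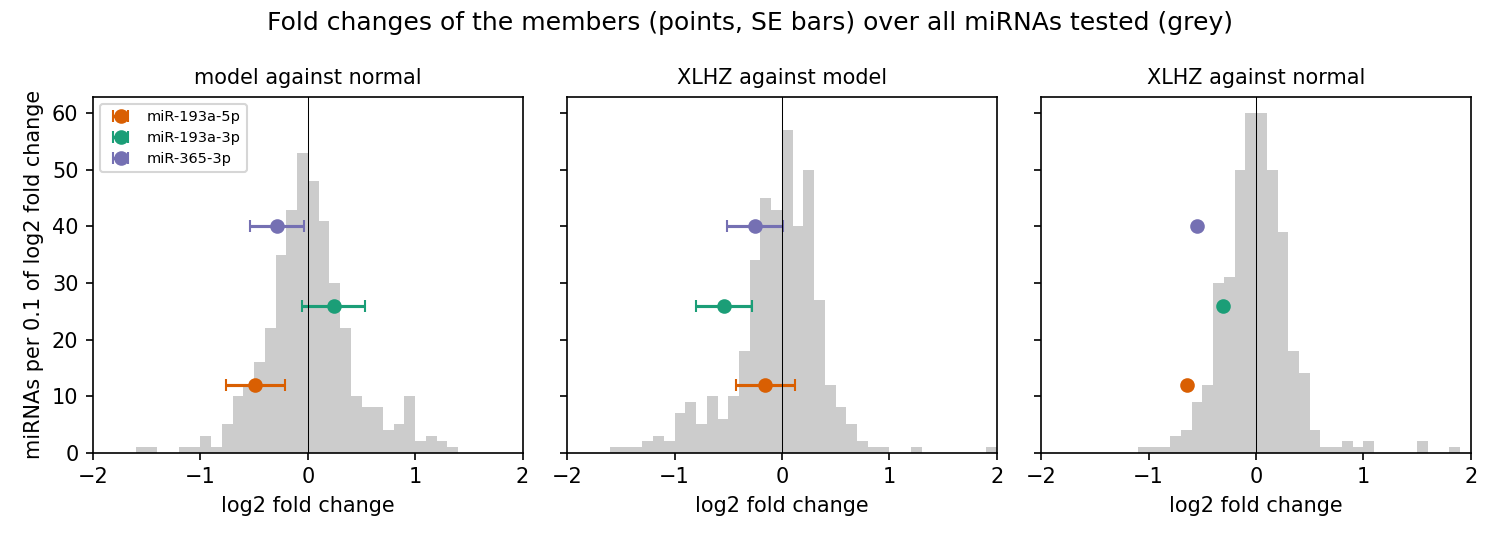
Log2 fold changes (x axes) of the 3 members in 3 comparisons, over the distribution of all miRNAs tested (grey bars; y axis, miRNAs per 0.1 of log2 fold change; 5, 0 and 4 miRNAs beyond 2 in size are not drawn). Whiskers are SE, none is drawn for the contrast that picked the members, and the height of a point carries no value. Points of the members lie between -0.65 and 0.24, inside the spread of other miRNAs.

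Ratios within a library need no scaling between libraries. miR-193a-5p over miR-193a-3p was 2.15, 1.02, 1.19 and 1.68 in XLHZ libraries 1 to 4. It was 1.22, 1.26, 1.13 and 0.691 in model libraries 1 to 4, and 0.910, 2.02, 2.39 and 2.81 in normal libraries 1 to 4. The 5p arm thus prevailed by 2-fold or more in 3 of the 4 normal libraries and in 1 XLHZ library, and in no model library. The mean log2 ratio was 0.063 ± 0.40 in model and 0.91 ± 0.72 in normal libraries (SD, n = 4 each), a difference of -0.84 (exact two-sided permutation p = 0.114). It was 0.53 ± 0.49 in XLHZ and 0.063 ± 0.40 in model libraries (SD, n = 4 each), a difference of 0.47 (exact two-sided permutation p = 0.257). In both comparisons the groups overlapped. With each library left out in turn, the difference ran from -1.19 (without normal library 1) to -0.65 (without model library 4) for model against normal. For XLHZ against model it ran from 0.27 (without model library 4) to 0.64 (without XLHZ library 2), and was 0.28 without XLHZ library 1.

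miR-193a-3p amounted to 1.38%, 2.16%, 2.14% and 1.51% of miR-365-3p counts in XLHZ libraries 1 to 4. The values were 2.15%, 1.83%, 2.38% and 2.80% in model libraries 1 to 4, and 2.40%, 1.19%, 1.46% and 1.07% in normal libraries 1 to 4. Normal library 1 stood with the model libraries and away from the other 3 normal ones. The difference in mean log2 ratio was 0.64 for model against normal (exact two-sided permutation p = 0.114) and -0.36 for XLHZ against model (exact two-sided permutation p = 0.171). With each library left out in turn these ran from 0.49 (without normal library 4) to 0.88 (without normal library 1), and from -0.46 (without model library 2) to -0.24 (without XLHZ library 1). Adjusted over the 4 ratio tests of all libraries, p was 0.229 or 0.257. With 4 libraries against 4 the smallest p possible is 0.0286. The pair of miR-193a-5p and miR-365-3p kept the narrowest ratio: the 5p arm amounted to 2.56 ± 0.313% of miR-365-3p in XLHZ, 2.38 ± 0.340% in model and 2.77 ± 0.593% in normal libraries (SD, n = 4 each). Over the 12 libraries the SD of its log2 ratio was 0.23, against 0.44 for miR-193a-3p over miR-365-3p and 0.62 for the arms of miR-193a. These SDs include the difference between XLHZ and normal libraries that picked the members. Within XLHZ, model and normal libraries its SD was 0.18, 0.21 and 0.31, in each group the smallest of the 3 ratios. No test was made on the ratio of that pair.

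**Figure D3:**
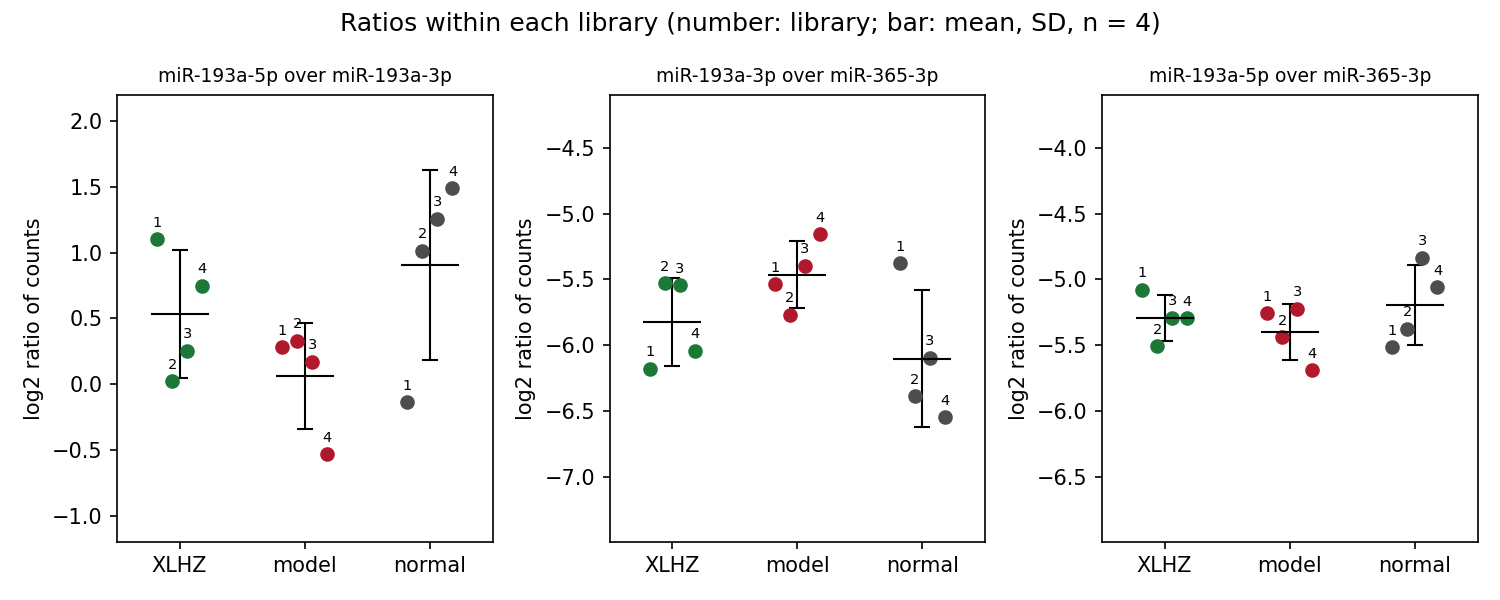
Log2 ratios of counts within each library (y axes, each spanning the same range) for the 3 pairs of members in XLHZ, model and normal libraries (x axes), with points numbered by library and bars for the mean and SD (n = 4). The ratio of miR-193a-5p to miR-365-3p spreads least (SD 0.23 over 12 libraries) and the ratio of the miR-193a arms spreads most (SD 0.62). Both SDs include the contrast that picked the members.

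Whether the clustered hairpins moved together was asked on deviations from the group mean, which leave out the difference that picked the members. Values were log2(CPM + 1), and 3 pairs were compared over 12 libraries. miR-193a-5p and miR-365-3p had a Pearson r of 0.76 (exact permutation within groups p = 0.0442, adjusted over the 3 pairs 0.118) and a Spearman rho of 0.64 (exact permutation p = 0.0604, adjusted 0.181). Without model libraries 2 and 4, the pair farthest from the median of miR-193a-5p, r was 0.44. Without model library 2 alone it was 0.38, so much of the relation rested on that library. miR-193a-3p and miR-365-3p had an r of 0.51 (exact permutation p = 0.0785, adjusted 0.118) and a rho of 0.42 (exact permutation p = 0.172, adjusted 0.258). Without XLHZ library 1 and normal library 1, the pair farthest from the median of miR-193a-3p, that r was 0.64. It was 0.36 without model library 2, 0.31 without model libraries 2 and 3, and 0.43 on library totals. The arms of the miR-193a hairpin had an r of -0.024 (exact permutation p = 0.938, adjusted 0.938) and a rho of -0.22 (exact permutation p = 0.505, adjusted 0.505). Without model libraries 2 and 4 that r was -0.50. No pair passed after adjustment.

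**Figure D4:**
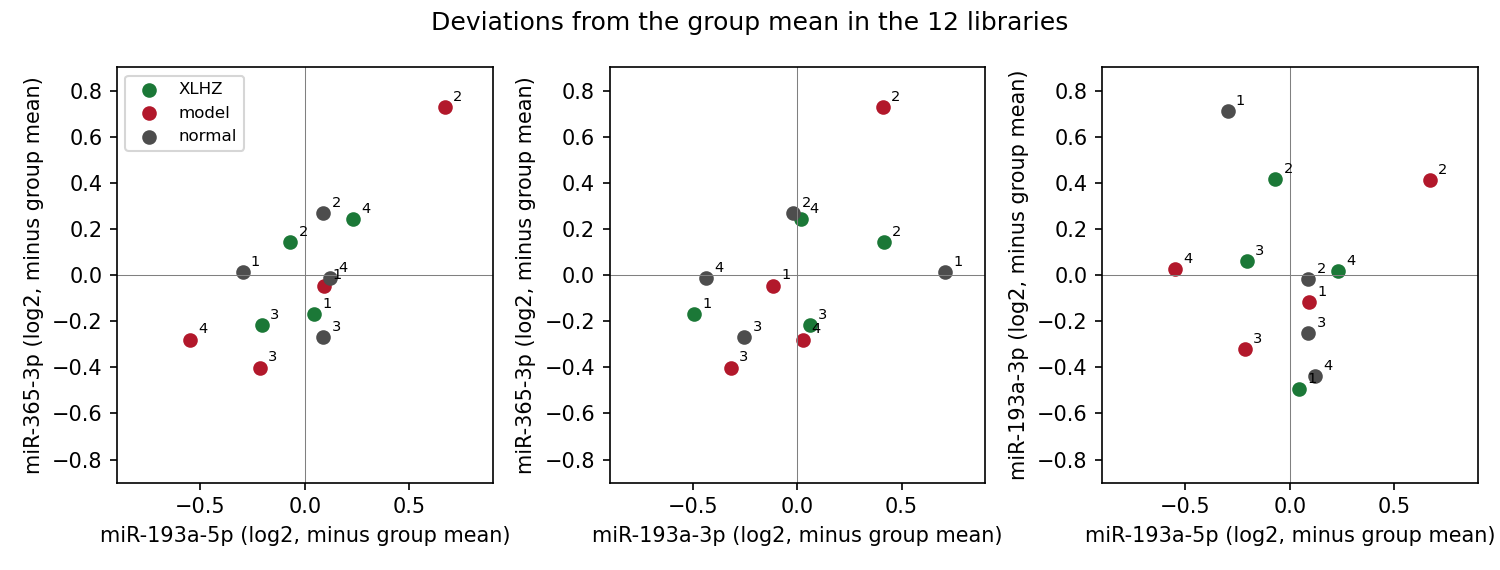
Deviations of log2(CPM + 1) from the group mean (both axes, log2 units) for the 3 pairs of members, with 1 point per library, coloured by group and numbered by library. In the left panel (r = 0.76) model library 2 lies far up and right, and in the right panel the arms of miR-193a show no common direction (r = -0.024).

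To set these values against other hairpins, 30 pairs of miRNAs from neighbouring hairpins were listed, and 27 had both members at a mean of 10 CPM or more. Their r within groups had a median of 0.76 and ran from -0.38 to 0.99. The highest were miR-192-5p with miR-194-5p of intestinal-type epithelium (0.99), miR-133a-3p with miR-1-3p (0.98) and miR-143-3p with miR-145-5p (0.96). The lowest were miR-99a-5p with let-7c-5p (-0.38), miR-34b-5p with miR-34c-5p (0.071) and miR-29b-3p with miR-29a-3p (0.33). Of the 27 pairs, 13 had a higher r than miR-365-3p with miR-193a-5p, and 20 had a higher r than miR-365-3p with miR-193a-3p. The SD of the log2 ratio within groups was 0.24 for miR-365-3p with miR-193a-5p and 0.39 for miR-365-3p with miR-193a-3p, beside a median of 0.18 for the listed pairs. For 23 of them RefSeq gave positions, and the mature starts lay at most 5.42 kb apart, against 13.9 kb for miR-365-3p and the miR-193a arms. These correlations share libraries and scaling factors, and several mature miRNAs in the list come from more than 1 locus.

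**Figure D5:**
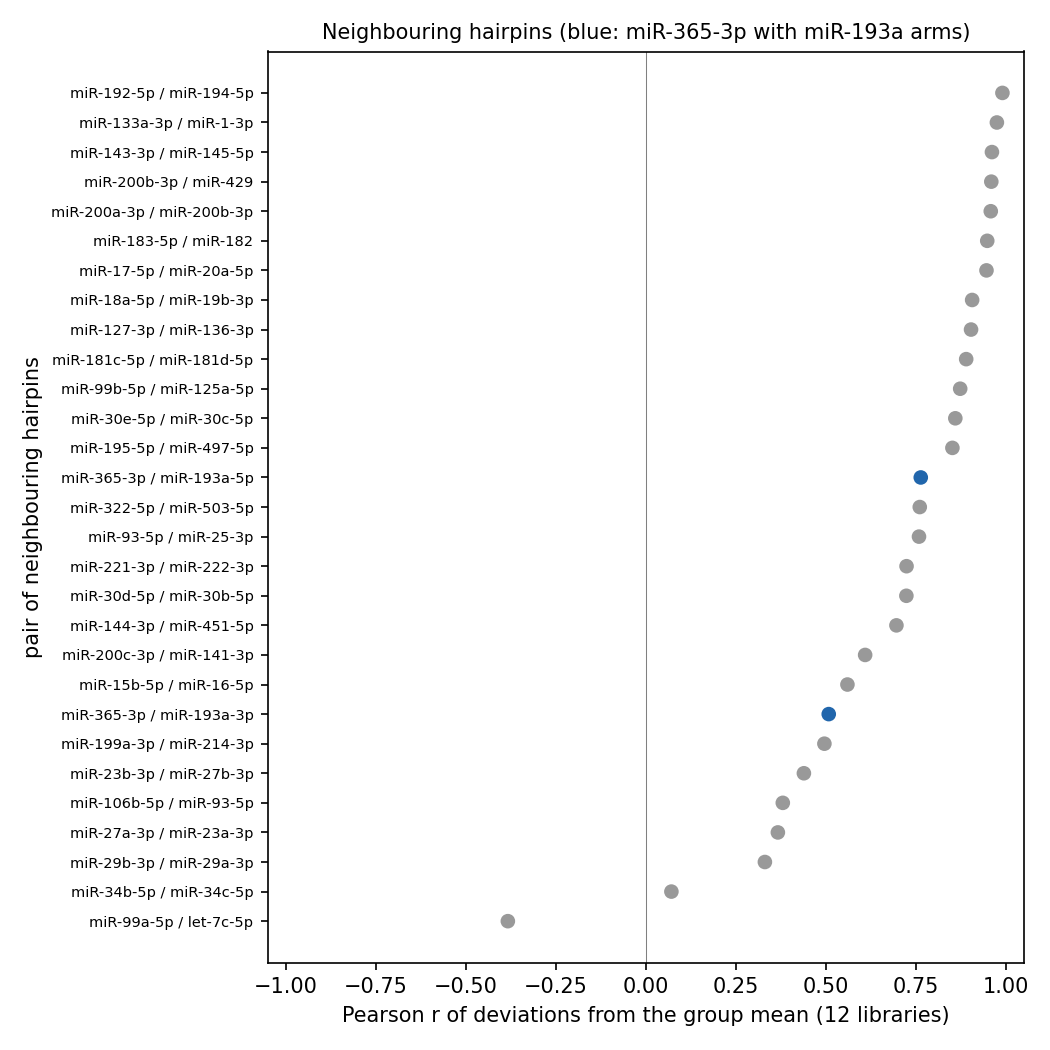
Pearson r of deviations from the group mean over 12 libraries (x axis) for 27 listed pairs of neighbouring hairpins (grey) and for miR-365-3p with either arm of miR-193a (blue), ordered by r (y axis, pairs). The blue points lie at 0.76 and 0.51, and the grey points run from -0.38 to 0.99.

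The arms of the miR-193a hairpin followed each other less closely than those of most hairpins. Among 70 hairpins with both arms at 10 CPM or more, the median r of the arms was 0.75 (quartiles 0.49 and 0.89), and 2 had a lower r than miR-193a. These were miR-30d (-0.52) and miR-106b (-0.078), named after their values were seen. For the 52 hairpins whose weaker arm was under 100 CPM, as for miR-193a, the median was 0.71. The value for miR-193a moved with single libraries, from -0.54 to 0.30 when each was left out in turn, and was 0.30 without normal library 1. These values are a description, with no test of the difference from other hairpins.

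The closest miRNAs by r within groups, among 282 at 10 CPM or more, differed between the members. For miR-193a-5p they were miR-24-3p (0.90), miR-22-3p (0.86), miR-99b-5p (0.80), miR-26a-5p (0.79) and miR-365-3p itself (0.76). For miR-365-3p they were miR-224-5p (0.81), miR-664-3p (0.79), miR-125b-2-3p (0.78), miR-137-3p (0.77) and miR-138-5p (0.77). In that order miR-193a-5p came 7th and miR-193a-3p came 37th of 281. For miR-193a-3p they were miR-136-5p (0.82), miR-382-5p (0.81), miR-409b (0.79), miR-136-3p (0.77) and miR-369-5p (0.75), while miR-365-3p came 46th and the other arm 138th. RefSeq places 4 of these 5 on chromosome 6. The fifth, miR-136-5p, had no entry and is the other arm of the miR-136-3p hairpin. Those arms had an r within groups of 0.93 with each other, so these partners are not independent rows. Of the 253 miRNAs at this level with a position, 29 were on chromosome 6. The median r with all others was 0.030 for miR-193a-5p, -0.058 for miR-193a-3p and -0.019 for miR-365-3p.

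Cell type markers also moved within groups, and their part in the levels above was not tested. The summed epithelial markers (11 rows, led by miR-200a-3p and miR-200b-3p) had an r within groups of -0.54 with miR-193a-5p, -0.75 with miR-193a-3p and -0.72 with miR-365-3p. The summed smooth muscle arms (4 rows, led by miR-143-3p and miR-145-5p) had 0.24, 0.59 and 0.42 with the same members, and the striated muscle list (9 rows, led by miR-1b and miR-133a-3p) had 0.24, 0.47 and 0.33. Striated muscle sums ran over 4650.3 to 13294 CPM in XLHZ, 7024 to 24459 CPM in model and 6384 to 10096 CPM in normal libraries. In XLHZ and in normal libraries the lowest and highest sums fell in the same libraries as those of smooth muscle. Among model libraries the highest striated sum was in library 3 and the highest smooth muscle sum in library 2. The striated list therefore need not mark a separate cell type. The nerve list (4 rows, led by miR-9a-5p and miR-9a-3p) had 0.49, 0.54 and 0.66, and summed to 212 to 410 CPM in XLHZ, 322 to 771 CPM in model and 275 to 433 CPM in normal libraries. Its highest sum was in model library 2. The endothelial list (3 rows, led by miR-126a-3p and miR-126a-5p) had -0.72, -0.34 and -0.72, with sums of 22162 to 26834 CPM in XLHZ, 18191 to 25936 CPM in model and 22906 to 24246 CPM in normal libraries. The leukocyte list (6 rows, led by miR-142-3p and miR-150-5p) had -0.44, -0.033 and -0.45, with sums of 3520.0 to 6514 CPM in XLHZ, 2646 to 5427 CPM in model and 3887 to 4844 CPM in normal libraries. The fibroblast list (4 rows, led by miR-199a-3p and miR-199a-5p) had -0.15, -0.14 and -0.29, with sums of 10041 to 12299 CPM in XLHZ, 10495 to 14315 CPM in model and 12125 to 12439 CPM in normal libraries. Squamous markers (6 rows, led by miR-31a-5p and miR-205) had -0.14, 0.16 and -0.14. Whether they came from the rat forestomach was not tested. The squamous markers summed to 7492 to 9942 CPM in XLHZ and 7022 to 9619 CPM in model libraries. In normal library 1, where miR-193a-3p was highest, they summed to 13020 CPM, and in the other 3 normal libraries to 9352 to 10061 CPM. Among all these marker hairpins, miR-133c and miR-208b had no row, and miR-208a and miR-126b had 4 and 7 counts over the 12 libraries. All correlations are over 12 libraries that share their scaling.

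Lists of miRNAs known from the same processes were set beside the members. Of 31 miRNAs from hairpins reported to act in brown or beige fat differentiation, 26 were tested for model against normal, 27 for XLHZ against model and 26 for XLHZ against normal, and 0 passed in edgeR or DESeq2, with 5, 2 and 3 at an unadjusted p under 0.05. Over all miRNAs 7.20%, 4.23% and 8.73% had such a p. Their median log2 fold changes were -0.066, -0.0048 and -0.042, beside -0.0072, 0.0057 and -0.0040 over all miRNAs. The most abundant, miR-26a-5p and miR-27b-3p, had log2 fold changes of -0.0037 (SE 0.10) and -0.12 (SE 0.14) for model against normal. Of 25 miRNAs from hairpins reported to act on cyclin D1, 22 were tested in each comparison, with medians of 0.15, -0.091 and 0.0038. Positive log2 fold changes numbered 20, 6 and 11 of the 22, and negative ones 2, 16 and 11. The share of each sign over all miRNAs is not given here, and their medians are those given above. Several rows of the list are arms of the same hairpin or come from neighbouring hairpins, such as miR-195 and miR-497. They are not independent, and the counts of signs carry no test. The most abundant, let-7a-5p and miR-16-5p, had log2 fold changes of -0.078 (SE 0.087) and 0.019 (SE 0.13) for model against normal. In that list 1 miRNA rose in model against normal and 0 fell: miR-20a-3p, the minor arm of the miR-20a hairpin. Over all 403 miRNAs tested in that comparison, 1 passed (0.248%), and it was this one. The list was drawn up by hairpin, and whether this arm acts on cyclin D1 was not tested. miR-20a-3p had 28.6, 19.2, 21.5 and 27.0 CPM in XLHZ libraries 1 to 4, and 28.4, 18.1, 147 and 22.3 CPM in model libraries 1 to 4. In normal libraries 1 to 4 it had 0.599, 0.621, 0.801 and 0.504 CPM, from 6, 7, 9 and 6 counts. Those normal counts lay under the minimum of the low-count filter, so this miRNA was tested because of its XLHZ and model counts. All XLHZ and model libraries lay above all normal ones, and model library 3 stood far above the other model libraries. It also passed for XLHZ against normal, where 1.50% of all miRNAs did. Its log2 fold change was 6.38 for model against normal (adjusted p = 0.00773, edgeR) and 5.20 for XLHZ against normal (adjusted p = 1.24e-06, edgeR). For XLHZ against model 0 of the 22 passed in edgeR or DESeq2. In the 3 comparisons 2, 0 and 3 of the 22 had an unadjusted p under 0.05, beside the shares of all miRNAs given above. The comparisons share libraries and are not independent of each other. Within groups, the summed brown fat list had an r of 0.79 with miR-193a-5p, 0.15 with miR-193a-3p and 0.82 with miR-365-3p. That sum was mostly miR-26a-5p, which alone had an r of 0.79 with miR-193a-5p. It averaged 54830, 57164 and 57160 CPM in XLHZ, model and normal libraries. The whole list averaged 95390.5, 93615 and 95323 CPM in these groups. The summed cyclin D1 list had -0.10, -0.56 and -0.52 with miR-193a-5p, miR-193a-3p and miR-365-3p. These correlations are over 12 libraries that share their scaling.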

How the data were processed

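Small RNA libraries were prepared with a QIAseq kit from RNA whose integrity number exceeded 7.0, and read by Illumina sequencing, per the labels' protocols. The submitters' processing notes name Bowtie and DESeq and no version. The build, the counting rule and any use of molecular identifiers are not stated in the sources used here. Raw counts per mature miRNA were deposited by the authors in 2 tables, of 639 and 632 rows. The deposited CPM columns equal count over column total within 5.0e-05 and served as a check only. Of 622 shared miRNAs, 621 had the same model counts in either table. The exception, miR-20b-3p, was left out of the joined table. miRNAs in 1 table alone had at most 3 counts and were taken as 0 in the other.

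Each comparison was fitted on its 8 libraries with edgeR 4.0.16 (quasi-likelihood test, TMM, filterByExpr with minimum count 10) in R 4.3.3, with Benjamini-Hochberg adjustment of all tested miRNAs' p-values and a threshold of 0.05. SE is the log2 fold change over the square root of F. Likeness used log2(CPM + 1) minus group means, with exact permutation of libraries within groups. Named miRNAs are the members, the 5 most alike for each, the extremes among listed pairs, and the 2 most abundant and any passing miRNA of each list. Alternatives were RLE factors, library totals, no filter, DESeq2 1.42.0, all 12 libraries in 1 fit, a replicate block, a pseudocount of 10 and left-out libraries. Members and lists were chosen with earlier results of these data known. Libraries within a group differed by far more than sampling noise (smallest chi-square over degrees of freedom 192). Sequences and positions are RefSeq's, on GRCr8. The antisense hairpin at the miR-193a locus was not analysed here.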

Additional observations from a re-analysis of the deposited data

Results flagged for a closer look

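Normal library 1 had 34.1 CPM of miR-193a-5p, while the other 3 normal libraries lay between 44.9 and 46.0 CPM. It was marked because its distance from its nearest neighbour took up most of the range of the group (0.907 of it). In all, 18 sets of 4 values were examined in this way, and chance marks about 1 in 20. On library totals normal library 1 had 34.1 CPM and the other 3 lay between 43.9 and 49.2 CPM, so the distance took up less of the range. The same library had the highest miR-193a-3p of its group, at 37.5 CPM.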

How the results depend on the processing

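In model against normal, 1 miRNA passed. The count was 2 with library totals, 3 with no count filter, 7 with DESeq2, 4 in 1 fit of all 12 libraries, and 1 to 4 when each library was left out (4 without model library 4). In XLHZ against model, 1 passed, 0 without model libraries 2 and 3 together, and 0 to 1 with each library left out, falling to 0 when any 1 of model libraries 1 to 4, XLHZ library 1 or XLHZ library 4 was left out. In XLHZ against normal, 6 passed, 2 in 1 fit of all 12 libraries, and 4 to 7 with each library left out. No member passed in either tested comparison under any alternative run. The count of members lower in XLHZ than normal with no overlap was 2 with TMM and 0 on library totals, an alternative chosen after seeing the data. Signs turned in XLHZ against model for miR-193a-5p with library totals (0.058) and without model libraries 2 and 3 (0.089), with a range of -0.32 to 0.13 over left-out libraries, and for miR-365-3p over left-out libraries (-0.42 to 0.054). In XLHZ against normal, miR-193a-3p ran from -0.47 to 0.0092. The r of the miR-193a arms ran from -0.54 to 0.30. The causes were not tested. Whether the replicate numbers pair the libraries was not settled. Correlations of same-numbered deviations ran from -0.44 to 0.52, and 5 of 12 libraries were most like one of the same number. These values cannot exclude a pairing. With the replicate block 1, 1 and 5 miRNAs passed, and miR-193a-3p in XLHZ against model had -0.55 (adjusted p = 0.437, edgeR). The counts of miR-193b-3p and miR-365-5p set the limit of depth.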
